A study of Mus musculus with 22 samples.

Results

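The sites described here are 857 places in the genome of MC3T3-E1 cells, a mouse pre-osteoblast line, where chromatin immunoprecipitation sequencing (ChIP-seq) found the retinoid X receptor (RXR) under every condition examined and never found the vitamin D receptor (VDR). They were chosen from the 7591 RXR regions of undifferentiated cells treated with the hormone 1,25(OH)2D3. A region was kept when it overlapped a region of each of the other 3 RXR lists (undifferentiated with vehicle, differentiated with vehicle, differentiated with hormone) by at least 1 bp and overlapped none of the 4 VDR lists made under the same conditions. The 857 sites are 11.3% of the list they come from, and 32.9% of the 2602 regions found in all 4 RXR lists; the other 1745 overlapped VDR and are called constitutive sites with VDR. Constitutive here refers to RXR alone. Of the 2602 regions, 1738 overlapped the VDR list of hormone-treated undifferentiated cells, which holds 7000 regions. The other VDR lists are shorter: undifferentiated vehicle 937, differentiated hormone 871 and differentiated vehicle 274 regions. They overlapped 240, 199 and 36 of the 2602 in turn, so the VDR rule rests mostly on 1 list. The RXR and VDR calls chose the sites, so those calls are given as a description only.

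RXR binds DNA mainly as the partner of another nuclear receptor, and most of these receptors recognise variants of the half-site AGGTCA. In direct repeats (DR) the half-sites follow each other in the same orientation, and the number of bases between them, written after the letters DR, favours different pairs. A spacer of 3 is classically bound with VDR, 1 with the peroxisome proliferator-activated receptors (PPAR), 4 with the liver X receptors (LXR) or thyroid hormone receptors, and 2 or 5 with the retinoic acid receptors (RAR). In bone-forming cells RXR has been studied mostly as the partner of VDR. None of the partner receptors other than VDR was immunoprecipitated in this series, so the comparisons below concern DNA sequence, position, other factors and chromatin.

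All samples came from this one line, used between passages 5 and 12. Cells were used undifferentiated or after 15 days of culture in glycerol-2-phosphate and ascorbic acid, and received ethanol vehicle or 100 nM 1,25(OH)2D3 for 3 h. RXR and VDR were profiled under all of these conditions, whereas the C/EBPβ, RUNX2 and histone lists used here all come from hormone-treated cells. Differentiated cultures were also homogenised and spun through sucrose to clear mineralised matrix, so state and preparation cannot be told apart. Each group is 1 list, which by its name holds overlaps of the authors' replicates. The region names give 2 merged peaks for 93.4% of the 7591 regions and for 70.4% to 99.6% in the 22 lists, and how many replicates each list rests on is not given in these names. The spread between cultures therefore cannot be measured, depth is unknown, and intervals given with shares are exact Clopper-Pearson 95% intervals that cover counting error only. H3K4me3 lay within 1 kb of a start of 3 of 5 osteoblast marker genes (Runx2, Sp7 and Col1a1, not Alpl or Ibsp) in both states, and of 0 of 5 muscle, 0 of 4 blood and 0 of 5 liver markers.

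The smallest overlap of a kept site with another RXR list had a median of 154 bp, over regions that all have the same width; it was as small as 1 bp, and at most 50 bp at 29 sites. On the other side of the rule, 26 regions of all 4 RXR lists were left out for a VDR overlap of at most 50 bp. The median distance from a kept site to the nearest VDR site centre was 45774 bp. It was at most 250 bp at 14 sites, the nearest at 205 bp, and at most 10 kb at 202 sites (23.6%). Site centres moved little between lists: the median shift from the starting list was 26 bp to the undifferentiated vehicle list and 28 bp to each differentiated list, against 28 to 29 bp for the constitutive sites with VDR.

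The sequences that bear on the choice of partner are the direct repeats inside these sites. Each half-site was searched as AGGTCA, with G also accepted for its leading A and T for the G just before TCA, on both strands of the region, with at most 1 mismatch over both half-sites. A longer spacer can share a half-site with a shorter one, so matches to different repeats can overlap. Matches without a mismatch were found at 13 sites for DR5, 5 for DR1, 4 for DR4, 4 for DR0, 3 for DR2 and 0 for DR3. The DR4 and DR5 elements are shown first, because these 2 spacers stood out in the counts that follow. They are read from the mm9 genome sequence, 5′ to 3′ on the strand of the repeat, named by the nearest protein-coding gene, with half-sites in capitals and the spacer in lower case.
Odf1, DR4, chr15:38183935-38183950, - strand: AGGTCAggagAGGTCA
Tmem186, DR4, chr16:8638136-8638151, - strand: AGTTCAagccAGGTCA
Cbfb, DR4, chr8:107691098-107691113, + strand: AGGTCAgctgAGGTCA
Cbfb, DR4, chr8:107691108-107691123, + strand: AGGTCAgctgAGGTCA
Plekhb1, DR5, chr7:107811909-107811925, - strand: GGTTCAcctagAGTTCA
Lrdd, DR5, chr7:148626638-148626654, - strand: AGGTCAtcctgGGGTCA
Smad3, DR5, chr9:63564204-63564220, + strand: GGGTCAtgtgaAGTTCA
Ccdc88b, DR5, chr19:6944097-6944113, - strand: GGGTCAagaggAGGTCA
Amotl1, DR5, chr9:14390298-14390314, - strand: GGGTCAagttcAGGTCA
Pex26, DR5, chr6:121097042-121097058, + strand: GGTTCAgaggaAGTTCA
App, DR5, chr16:85133785-85133801, - strand: AGGTCAggccaAGTTCA
Syt2, DR5, chr1:136667985-136668001, + strand: AGGTCAtgtggAGGTCA
Ednra, DR5, chr8:80373331-80373347, + strand: GGGTCAtggagAGGTCA
Ednra, DR5, chr8:80373342-80373358, + strand: AGGTCAtagagGGGTCA
Ednra, DR5, chr8:80373353-80373369, + strand: GGGTCAtggagGGGTCA
Tmem2, DR5, chr19:21958039-21958055, - strand: AGTTCAcaggaAGGTCA
1700016C15Rik, DR5, chr1:179553811-179553827, - strand: GGTTCAtccacAGTTCA
Rbms1, DR5, chr2:60977189-60977205, - strand: GGTTCAacattAGGTCA

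These lines hold 3 of the 4 sites with a perfect DR4 and 12 of the 13 with a perfect DR5. The site near Cbfb, which encodes the partner subunit of the RUNX factors, carried 2 overlapping DR4 copies that share a half-site. It lay 3462 bp from the start, outside annotated protein-coding genes. The site 125089 bp from the start of Ednra, the endothelin A receptor gene, held 3 overlapping DR5 copies in a short tandem array. Of the half-sites in the printed DR5 elements, 10 were AGGTCA, 8 GGGTCA, 6 AGTTCA and 4 GGTTCA. The printed DR4 elements used AGGTCA 7 times and AGTTCA once.

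Whole regions are shown for sites with a perfect repeat, to place the element in its surroundings. For each of DR0, DR1, DR2, DR4 and DR5 they are the pair nearest a start, taking genes of the studied lists first and leaving out untranslated regions; for DR2 only 1 of the pair is shown. The sequence is the plus strand of mm9, and capitals mark the repeat.
Dot1l promoter, DR0, chr10:80217588-80217788: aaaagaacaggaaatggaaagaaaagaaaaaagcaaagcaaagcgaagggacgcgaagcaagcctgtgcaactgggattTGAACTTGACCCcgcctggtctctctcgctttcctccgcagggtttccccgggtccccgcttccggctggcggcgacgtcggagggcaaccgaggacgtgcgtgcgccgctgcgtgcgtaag
Amotl1 intron, DR0, chr9:14390214-14390414: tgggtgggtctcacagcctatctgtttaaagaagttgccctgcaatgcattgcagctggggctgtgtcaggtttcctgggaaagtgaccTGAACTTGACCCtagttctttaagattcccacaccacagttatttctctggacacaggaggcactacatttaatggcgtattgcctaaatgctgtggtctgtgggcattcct
0610007L01Rik promoter, DR1, chr5:130698047-130698247: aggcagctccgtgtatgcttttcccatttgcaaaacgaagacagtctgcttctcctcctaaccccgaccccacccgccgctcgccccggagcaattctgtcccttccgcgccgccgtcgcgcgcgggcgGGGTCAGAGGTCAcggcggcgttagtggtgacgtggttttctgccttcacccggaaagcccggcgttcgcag
Ppp2r4 intron, DR1, chr2:30300907-30301107: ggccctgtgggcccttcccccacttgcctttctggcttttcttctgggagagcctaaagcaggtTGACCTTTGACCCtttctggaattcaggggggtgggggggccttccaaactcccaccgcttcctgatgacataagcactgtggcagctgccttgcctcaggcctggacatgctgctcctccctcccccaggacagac
Arhgef10l intron, DR2, chr4:140192607-140192807: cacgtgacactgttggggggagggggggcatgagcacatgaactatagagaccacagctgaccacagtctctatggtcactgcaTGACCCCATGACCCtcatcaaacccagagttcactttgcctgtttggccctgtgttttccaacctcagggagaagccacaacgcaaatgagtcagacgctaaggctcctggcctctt
Tmem186 promoter, DR4, chr16:8638003-8638203: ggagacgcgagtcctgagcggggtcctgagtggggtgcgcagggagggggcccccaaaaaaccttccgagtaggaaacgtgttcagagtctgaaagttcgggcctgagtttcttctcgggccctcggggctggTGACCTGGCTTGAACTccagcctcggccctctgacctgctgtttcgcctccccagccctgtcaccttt
Cbfb upstream site, DR4, chr8:107691012-107691212: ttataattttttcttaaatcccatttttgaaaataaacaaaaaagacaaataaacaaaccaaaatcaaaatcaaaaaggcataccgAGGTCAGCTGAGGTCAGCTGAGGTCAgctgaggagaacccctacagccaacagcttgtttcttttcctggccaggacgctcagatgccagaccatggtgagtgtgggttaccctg
Smad3 intron, DR5, chr9:63564076-63564276: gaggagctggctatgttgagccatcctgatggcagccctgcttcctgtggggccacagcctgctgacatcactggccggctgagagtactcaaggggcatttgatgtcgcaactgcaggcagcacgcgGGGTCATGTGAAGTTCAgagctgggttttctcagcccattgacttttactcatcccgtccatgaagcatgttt
Esrra distal site, DR5, chr19:6943993-6944193: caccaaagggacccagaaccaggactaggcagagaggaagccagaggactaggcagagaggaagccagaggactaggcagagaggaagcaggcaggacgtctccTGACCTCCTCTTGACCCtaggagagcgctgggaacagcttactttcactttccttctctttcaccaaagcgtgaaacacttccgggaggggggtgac

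The Smad3 site lay in an intron, 4400 bp upstream of the nearest annotated start of this gene for a transducer of TGF-β signals. Its DR5 sat 36 bp from the site centre, and C/EBPβ but not RUNX2 overlapped it in both states. The site 51448 bp from Esrra, an orphan receptor gene, was intergenic, and its DR5 lay 12 bp from the centre. It is the same site whose DR5 is printed above under Ccdc88b, the gene with the nearest start, 11392 bp away. The site in Amotl1 contains a DR0 and a DR5 that share letters. At Tmem186 the DR4 was 298 bp from the start, and neither C/EBPβ nor RUNX2 overlapped the site in either state.

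DR4 and DR5 were the most frequent repeats at these sites. With at most 1 mismatch, a DR5 was found at 64 of the 857 sites (7.47%, interval 5.80 to 9.44), against 3.19% of all 7591 regions, which include the 857. A DR4 was found at 61 sites (7.12%, 5.49 to 9.05), against 4.58% of all regions. Only 3 sites had both, so 122 sites (14.2%, 12.0 to 16.8) had a DR4 or a DR5. In the windows of the same length placed 2 kb to either side of the sites, DR5 occurred in 1.58% (1.04 to 2.28) and DR4 in 1.23% (0.760 to 1.87) of 1714 windows.

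DR5 was less frequent in each of the other RXR sets. Of the 1745 sites found in all 4 RXR lists with VDR, 2.41% (1.74 to 3.24) had a DR5 and 4.18% (3.29 to 5.23) a DR4. Of the 2508 sites without VDR that were missing from at least 1 RXR list, 2.99% (2.36 to 3.73) had a DR5 and 3.39% (2.72 to 4.17) a DR4. For both repeats the intervals of the 857 sites did not overlap those of either set. Of the 2481 sites with VDR that were missing from an RXR list, 2.46% (1.89 to 3.15) had a DR5, again without overlap. A DR4 was found at 5.20% of them (4.36 to 6.15), an interval that overlapped that of the 857. With no mismatch allowed the DR5 order held, at 13 sites (1.52%, 0.810 to 2.58) against 0.172%, 0.439% and 0.242% in those sets in turn, and 0 of the 1714 flanking windows. The DR4 order did not hold: a perfect DR4 occurred at 4 sites (0.467%, 0.127 to 1.19), against 0.516%, 0.359% and 0.927% in those sets and 0.593% of all regions. With AGGTCA as the only half-site and 1 mismatch, DR4 was found at 2.45% of the 857 sites and 0.630% of the constitutive sites with VDR, and DR5 at 1.98% and 0.516%.

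**Figure D1:**
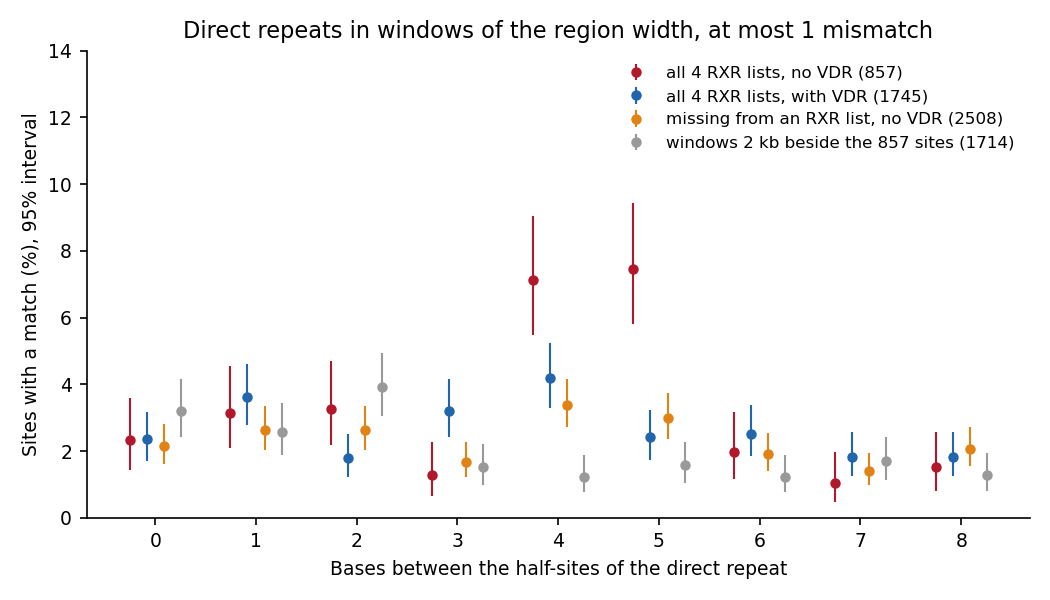
Share of sites (%) with a direct repeat of each spacer length (bases between half-sites), for 3 sets of RXR sites and for windows 2 kb beside the 857 sites; points are shares and bars exact 95% intervals. The 857 sites stand at 7.12% for a spacer of 4 and 7.47% for 5, with the other spacers at 3.27% or less.

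Over the whole region, with at most 1 mismatch, the other spacers gave shares near those of the flanking windows. DR3, the classical VDR element, matched at 11 sites (1.28%, 0.642 to 2.28), against 6.93% of all regions and 1.52% of the flanking windows, and a perfect DR3 was found at none of the 857, where the upper bound of the exact interval was 0.430%. DR3 was found at 3.21% of the sites in all 4 RXR lists with VDR, and at 16.8% of the sites with VDR that were missing from an RXR list. DR1 matched at 27 sites (3.15%, 2.98% of all regions, 2.57% of flanking windows) and DR2 at 28 sites (3.27%, 2.81% and 3.91%). DR0 was found at 2.33% (2.65% of all regions), DR6 at 1.98% (2.17%), DR7 at 1.05% (1.82%) and DR8 at 1.52% (2.09%). Inverted and everted repeats of the same half-sites, each with spacers of 0 to 8, were each found at 0.467% to 1.40% of the sites.

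The DR4 and DR5 matches sat at the centres of the sites. In 100-bp bins, DR5 was found in the central bin of 47 sites (5.48%) and DR4 in that of 45 (5.25%). No bin from 200 to 1000 bp on either side held a DR4 at more than 1.63% of sites or a DR5 at more than 1.05%. DR1 was found in the central bin of 20 sites (2.33%) and at no more than 1.40% of sites in any other bin. DR2 was found at 2.22% in the central bin, but also at 2.22% in a bin 1000 bp away. DR3 did not rise above 1.05% in any bin.

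**Figure D2:**
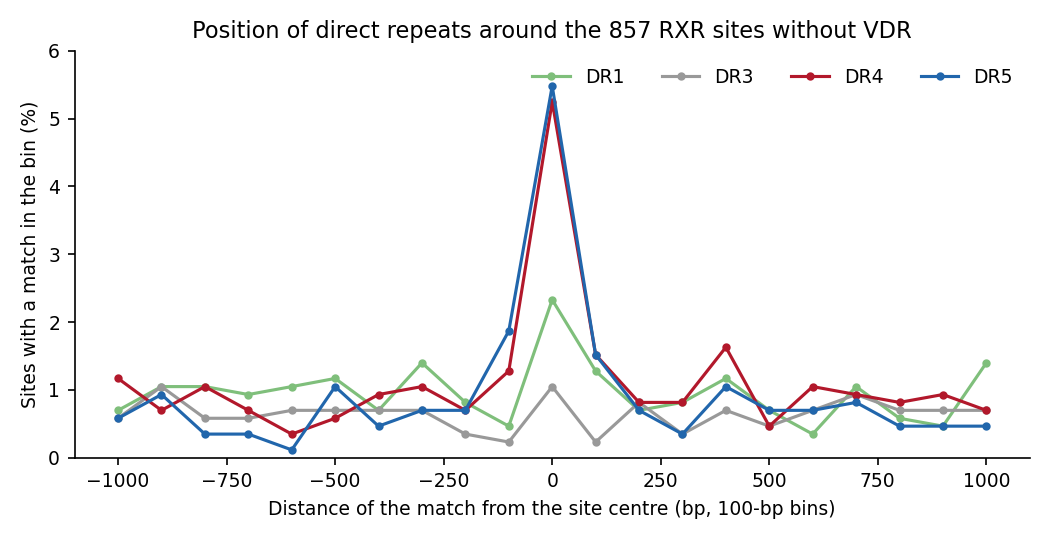
Share of the 857 sites (%) with a direct repeat in each 100-bp bin, against the distance of the bin from the site centre (bp), for DR1, DR3, DR4 and DR5 with at most 1 mismatch. DR4 and DR5 reach 5.25% and 5.48% in the central bin and DR1 2.33%, while DR3 stays at or below 1.05%.

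Single elements were counted as well, without a mismatch unless stated. The half-site AGGTCA occurred at 204 sites (23.8%, 21.0 to 26.8), 20.2% of all regions and 13.1% of the flanking windows. AAAGGTCA, the form bound by NR4A receptors as monomers, occurred at 2.68%, against 1.92% and 0.933%. The RUNX consensus was found at 24.3% (21.4 to 27.3), less than at the sites in all 4 RXR lists with VDR (35.1%, 32.8 to 37.4) and more than in the flanks (8.69%). The AP-1 consensus was found at 11.8% (11.3% of all regions, 3.56% of flanks). The SP/KLF box GGGCGG occurred at 21.6% (18.9 to 24.5), against 13.0% of all regions, and at 47.3% of the sites within 1 kb of a start.

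These sites lay near starts of genes more often than other RXR sites. A protein-coding start was within 1 kb of 239 sites (27.9%, 24.9 to 31.0), against 17.6% of all regions, 13.9% (12.3 to 15.6) of the sites in all 4 RXR lists with VDR, and 22.2% (20.6 to 23.8) of those without VDR that were missing from a list. The median distance to a start was 12588 bp, against 29540 bp and 18347 bp. Beyond 1 kb, with only protein-coding genes counted, 337 sites were intergenic (39.3%), 259 intronic (30.2%) and 22 exonic (2.57%). The median GC content was 54.7%, against 50.7% at the constitutive sites with VDR; within 1 kb of a start it was 62.2% and farther away 52.5%. The DR4 or DR5 share was 14.2% both within 1 kb of a start (10.1 to 19.3) and farther away (11.6 to 17.2). The 857 sites made up between 6.21% (chromosome 14) and 14.5% (chromosome 7) of the RXR regions of a chromosome.

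RUNX2 and C/EBPβ were less often called at these sites than at the constitutive sites with VDR. RUNX2, the transcription factor that specifies osteoblasts, overlapped 437 sites in undifferentiated cells (51.0%, 47.6 to 54.4), against 60.8% of all regions and 85.6% (83.8 to 87.2) of the sites in all 4 RXR lists with VDR. In differentiated cells it overlapped 365 sites (42.6%, 39.3 to 46.0), against 39.3% and 70.5% (68.3 to 72.7). C/EBPβ, a leucine zipper factor of osteoblast and adipocyte differentiation, overlapped 234 sites in undifferentiated cells (27.3%, 24.3 to 30.4), against 40.1% and 60.2% (57.9 to 62.5). In differentiated cells it overlapped 221 (25.8%, 22.9 to 28.9), against 29.6% and 50.5% (48.1 to 52.9). Neither factor was called at 329 of the 857 sites in undifferentiated cells (38.4%, 35.1 to 41.7) or at 398 in differentiated cells (46.4%), against 7.68% and 18.3% of the constitutive sites with VDR. The sites with VDR that were missing from an RXR list differed from this. In undifferentiated cells 57.5% of them (55.5 to 59.4) had RUNX2 and 43.3% C/EBPβ (41.4 to 45.3), both above the 857. In differentiated cells RUNX2 was below the 857, at 29.9% (28.1 to 31.8), C/EBPβ was at 27.2% (25.5 to 29.0), with overlapping intervals, and neither factor was called at 55.4% (53.4 to 57.4).

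The gap in RUNX2 to the constitutive sites with VDR was seen both near starts and away from them. Farther than 1 kb from a start, RUNX2 overlapped 57.6% (53.6 to 61.5) of these sites in undifferentiated cells and 88.5% (86.8 to 90.1) of the constitutive sites with VDR. Within 1 kb the shares were 33.9% (27.9 to 40.3) and 67.5% (61.2 to 73.3). The RXR sites without VDR that were missing from a list had almost the same undifferentiated shares as the 857, with RUNX2 at 50.3% and C/EBPβ at 27.4%.

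In differentiated cells the shares of those 2 sets differed. RUNX2 overlapped 42.6% (39.3 to 46.0) of the 857 and 25.8% (24.1 to 27.6) of the sites without VDR missing from a list. C/EBPβ overlapped 25.8% (22.9 to 28.9) and 18.8% (17.3 to 20.4). RUNX2 was kept in the differentiated list at 303 of the 437 sites that had it in undifferentiated cells (69.3%), and appeared at 62 further sites. At the sites without VDR missing from an RXR list, 42.9% of 1262 kept it, and at the constitutive sites with VDR 78.1% of 1493. C/EBPβ was kept at 176 of 234 sites (75.2%) and appeared at 45, against 62.0% of 687 and 77.0% of 1051. The differentiated lists were shorter, with 7919 regions against 12012 for RUNX2 and 16557 against 17950 for C/EBPβ, so a loss at these sites and a shorter list cannot be told apart. The sites missing from a list include those where RXR itself was not called in differentiated cells, and the part of this in the kept shares was not tested.

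The repeats and RUNX2 tended to mark different sites. A DR4 or DR5 was found at 90 of the 420 sites without RUNX2 in undifferentiated cells (21.4%, 17.6 to 25.7) and at 32 of the 437 with it (7.32%, 5.06 to 10.2). The RUNX consensus went the other way, at 7.86% without RUNX2 and 40.0% with it. The same direction for DR4 or DR5 was seen in the other RXR sets: 9.92% against 5.83% in all 4 RXR lists with VDR, 9.63% against 2.69% without VDR and missing from a list, and 12.4% against 3.58% with VDR and missing from a list. Among the sites without RUNX2, the interval of the 857 lay above those of the other sets. Among those with RUNX2, it overlapped the interval of the sites in all 4 RXR lists with VDR. The gap between 24.0% and 7.02% farther than 1 kb from a start, with intervals that did not overlap, was wider than that within 1 kb, 17.1% (11.6 to 23.9) against 8.64% (3.55 to 17.0), where they did.

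**Figure D3:**
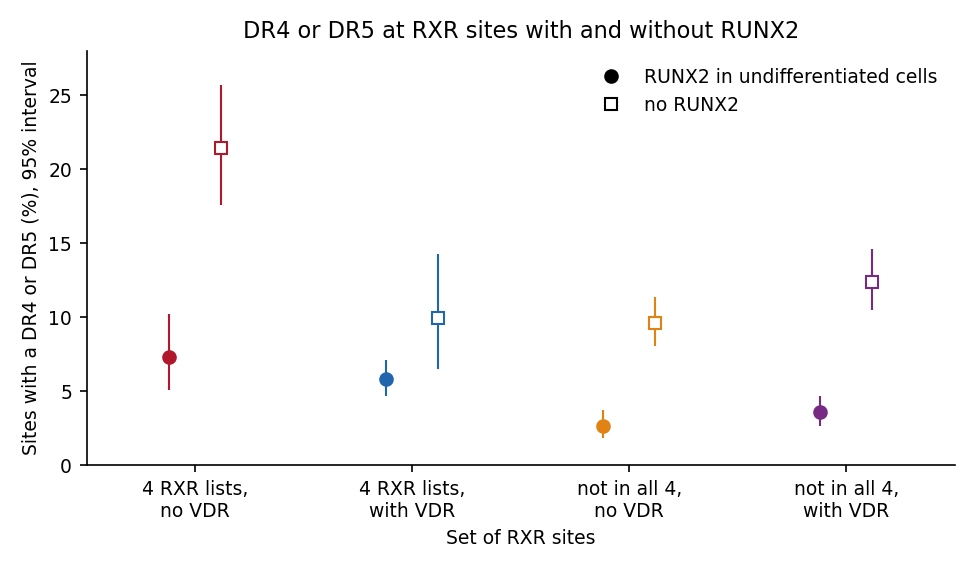
Share of RXR sites (%) with a DR4 or DR5 in 4 sets of sites, split by overlap with RUNX2 in undifferentiated cells (filled circles, with; open squares, without); bars are exact 95% intervals. The open square of the 857 sites stands at 21.4%, and those of the other 3 sets between 9.63% and 12.4%.

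Chromatin marks of active regulatory DNA covered nearly all of the sites in both states. H4K5ac covered 837 (97.7%) in undifferentiated and 836 (97.5%) in differentiated cells, against 98.7% and 97.2% of all regions. H3K4me1, a mark of enhancers and promoter borders, covered 832 (97.1%) and 847 (98.8%), against 97.8% and 98.7%. These shares are near those of any RXR region. The labels name H4K5ac while the protocol text lists H3K5Ac, and the labels were followed.

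H3K9ac changed most between the states. It covered 601 sites in undifferentiated cells (70.1%, 66.9 to 73.2; 65.8% of all regions) and 746 in differentiated cells (87.0%, 84.6 to 89.2; 82.3%). It was gained at 149 sites and lost at 4. Gains outnumbered losses in the other sets too, with 311 against 5 at the sites in all 4 RXR lists with VDR. The differentiated H3K9ac list was also longer, at 22868 regions against 17189, so a gain at these sites and a longer list cannot be told apart.

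H3K4me3, the mark of active promoters, covered 295 sites (34.4%, 31.2 to 37.7) in undifferentiated cells, against 24.2% of all regions and 22.2% of the constitutive sites with VDR. In differentiated cells it covered 254 (29.6%, 26.6 to 32.8), against 18.5% and 15.1%. Within 1 kb of a start the shares of the 857 sites and the constitutive sites with VDR were close, at 78.7% and 79.4% in undifferentiated cells. Farther away they were 17.3% (14.4 to 20.5) and 13.0% (11.3 to 14.8). H3K36me3, which lies over transcribed gene bodies, covered 212 sites (24.7%; 28.5% of all regions) and 152 (17.7%; 20.1%). The sites with a DR4 or DR5 carried H3K9ac less often than the others in undifferentiated cells, 55.7% (46.5 to 64.7) against 72.5% (69.1 to 75.7), and H4K5ac at 91.8% (85.4 to 96.0) against 98.6% (97.5 to 99.3).

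**Figure D4:**
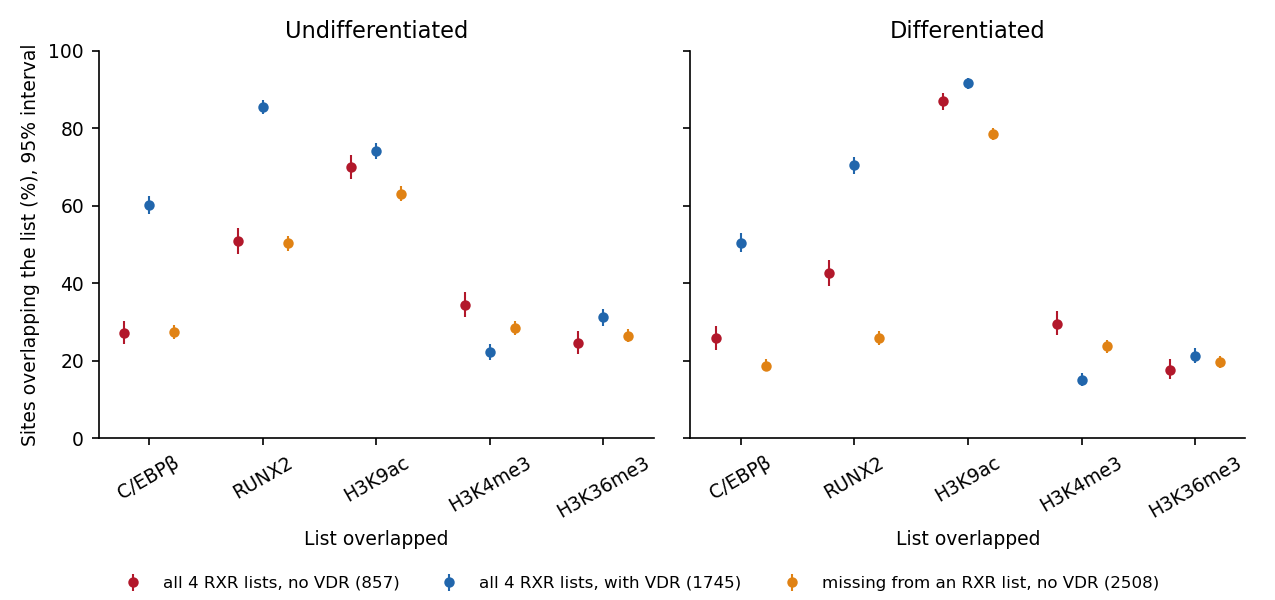
Share of sites (%) overlapping the C/EBPβ, RUNX2, H3K9ac, H3K4me3 and H3K36me3 lists of hormone-treated undifferentiated and differentiated cells, for 3 sets of RXR sites; bars are exact 95% intervals. The 857 sites lie below the constitutive sites with VDR for C/EBPβ and RUNX2 in both states and above them for H3K4me3.

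Genes were then examined by role. Of 22208 protein-coding genes, 2594 (11.7%) had one of the 857 sites within 100 kb of a start and 270 (1.22%) within 1 kb. The constitutive sites with VDR reached 15.1% of genes within 100 kb, and any of the 7591 RXR regions 43.2%. A site can count for several genes that lie close together. The gene lists were not tested against the other genes.

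Among genes known as LXR targets, which handle cholesterol efflux and fatty acid synthesis, 5 of 15 had a site within 100 kb and 4 of 15 within 1 kb. Constitutive sites with VDR lay within 100 kb of more of them, 7 of 15, and within 1 kb of 1 of 15, and 12 of 15 had some RXR region within 100 kb. Abca1, the cholesterol efflux pump, had 3 sites: one 149 bp upstream of the start, one in an intron 43810 bp downstream and one 58407 bp upstream. Fasn, which encodes fatty acid synthase, had one 594 bp upstream. Lpcat3, a phospholipid remodelling enzyme, had one 424 bp upstream, and a VDR site lay 547 bp from it. Scd2, a stearoyl-CoA desaturase, had 3, at 274 bp and 1228 bp downstream and 26464 bp upstream. Nr1h3, which encodes LXRα, had one 7726 bp upstream, at the promoter of Acp2. Neither C/EBPβ nor RUNX2 overlapped the promoter sites of Abca1, Fasn and Lpcat3 in either state, whereas RUNX2 overlapped all 3 Scd2 sites in undifferentiated cells.

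No DR4 with at most 1 mismatch was found at the Abca1 and Fasn promoter sites, but each held the same 16 bases with a DR4 at 2 mismatches. This element was noticed at these promoter sites and then counted, so both are among its matches by construction. Its half-sites with any spacer, GGGTTANNNNCGGTCA, were found in 6 of the 7591 RXR regions (0.0790%) and in 0 of the 15182 flanking windows. The 6 regions were the following, with half-sites in capitals, read on the strand of the element and named by the nearest gene.
Fasn, chr11:120686071-120686086, + strand: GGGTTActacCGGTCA
Scd3, chr19:44322785-44322800, + strand: GGGTTActctCGGTCA
Scd2, chr19:44358734-44358749, + strand: GGGTTActctCGGTCA
Scd1, chr19:44463173-44463188, - strand: GGGTTAttctCGGTCA
Abca1, chr4:53128862-53128877, + strand: GGGTTActctCGGTCA
Abca1, chr4:53172819-53172834, + strand: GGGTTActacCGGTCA

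All 6 regions were nearest to Fasn, Abca1 or a stearoyl-CoA desaturase gene, and all 6 were in all 4 RXR lists. The sites at Fasn and Abca1 are among the 857. The sites near Scd1, Scd2 and Scd3 overlapped VDR in hormone-treated undifferentiated cells and in no other VDR list. The spacer was ctac at Fasn and at the Abca1 promoter, ctct at the Abca1 intron, Scd2 and Scd3, and ttct at Scd1. The Scd genes are close paralogs in one cluster, so their elements are not independent. A limit of 2 mismatches is loose: a DR4 with up to 2 was found at 28.6% of the 857 sites and 20.9% of all regions.

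Among genes known as PPAR targets, which burn fatty acids, 10 of 25 had a site within 100 kb and 5 of 25 within 1 kb. Within 100 kb, 5 of 25 had a constitutive site with VDR and 15 of 25 some RXR region. The 5 genes with one of the 857 sites within 1 kb included Slc25a20, the mitochondrial carnitine carrier (82 bp). Ech1 (80 bp) and Acaa2 (117 bp), enzymes of β-oxidation, were among them too. The others were Pdk4, the kinase that shuts off pyruvate oxidation (189 bp), and Acadl, long-chain acyl-CoA dehydrogenase (373 bp). These 5 were also the only ones of the 25 with any of the 7591 RXR regions within 1 kb, where the share of all genes was 6.39%. None of the 25 had a site of all 4 RXR lists with VDR there. Such sites reached 1.27% of all genes within 1 kb, so 0 of 25 is near that share. Cpt1a, the gatekeeper of fatty acid entry into mitochondria, had a site in an intron 2172 bp from the start. At Slc25a20, Acaa2, Pdk4 and Acadl the promoter site was the only RXR region within 100 kb. RUNX2 overlapped the Pdk4 site and C/EBPβ the Ech1 site. Among the promoter sites of Slc25a20, Ech1, Pdk4 and Acadl, that of Acadl had a DR1 with 1 mismatch and that of Slc25a20 one with 2, shown here with half-sites in capitals. A DR1 with up to 2 mismatches was found at 18.7% of the 857 sites and 21.1% of all regions.
Acadl, DR1, chr1:66909485-66909497, + strand: AGTTCAcGGGACA
Slc25a20, DR1, chr9:108564473-108564485, + strand: AGGTGAaAGGTCG

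Among genes known to respond to thyroid hormone, 4 of 9 had a site within 100 kb, 2 of 9 a constitutive site with VDR and 7 of 9 some RXR region. Klf9, a zinc finger factor gene, had 2, at 5211 bp and 6272 bp upstream. Bcl3, a nuclear cofactor of NF-κB, had 2, at 1627 bp upstream and 4482 bp downstream, and these were the only RXR regions within 100 kb. Dbp, a clock output factor gene, had one in an exon 2213 bp from the start, which also lay 92347 bp upstream of the liver hormone gene Fgf21. Dio3, the deiodinase that inactivates thyroid hormone, had one 94313 bp away. A DR4 with 1 mismatch was present at the nearer Klf9 site, the nearer Bcl3 site and the Dbp site. The Bcl3 and Dbp sites also held a DR2 with 1 mismatch that shares a half-site with the DR4, so both spacers are shown.
Klf9, DR4, chr19:23210495-23210510, - strand: GGTTCAtttgAGGACA
Bcl3, DR4, chr7:20409746-20409761, + strand: GGTTGAgtccAGGTCA
Bcl3, DR2, chr7:20409756-20409769, + strand: AGGTCActGAGTCA
Dbp, DR4, chr7:52963218-52963233, - strand: GGGTCAgccgAGGACA
Dbp, DR2, chr7:52963210-52963223, - strand: AGGACAccAGTTCA

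At Klf9 the DR4 lay 2 bp from the site centre. Neither C/EBPβ nor RUNX2 overlapped these 3 sites in either state.

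Of 20 genes for receptors that pair with RXR, 9 had a site within 100 kb, close to the 8 with a constitutive site with VDR, and 16 had some RXR region. Rara, the RARα gene, had 3 of them within 100 kb, at 1881 bp and 8936 bp upstream and 59429 bp downstream, the last at the promoter of Top2a. Rarg, the RARγ gene, had one 625 bp upstream, overlapped by RUNX2 in undifferentiated cells. Nr4a1, an orphan receptor gene induced early after stimulation, had one 6243 bp upstream. Thra, Nr1i3, Nr1i2, Vdr and Ppara had one each at 29897 to 81498 bp. The starts of other genes lay nearer to these sites, and the Thra site is also the Nr1d1 site given next. Of a list of other nuclear receptor genes, 3 of 16 had a site and 2 of 16 a constitutive site with VDR. The 3 were Nr1d2 at 858 bp, Nr1d1 at 8150 bp upstream, both clock repressor genes, and Esrra at 51448 bp. The Rara site nearest the start had a DR4 and the Rarg site a DR5, each with 1 mismatch.
Rara, DR4, chr11:98787165-98787180, + strand: AGGTCAgactAGGGCA
Rarg, DR5, chr15:102077613-102077629, - strand: GGTTCCcggagAGTTCA

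Among genes known as retinoic acid targets, 1 of 14 had a site within 100 kb, a share of 7.14% beside the 11.7% of all genes. The classical targets Rarb, Cyp26a1 and Cyp26b1 had none, although 12 of the 14 had some RXR region within 100 kb and 7 a constitutive site with VDR. No DR5 match of the 857 sites lay within 100 kb of a gene of that list.

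Bone genes had some sites, mixed with VDR sites. Of 14 genes for bone matrix and mineralisation, 6 had a site within 100 kb, against 10 with a site of all 4 RXR lists with VDR. Col1a1, which encodes the main chain of bone collagen, had 5 of the 857 within 100 kb, among 16 RXR regions. They lay at 66 bp downstream, 1542 bp, 8047 bp and 54928 bp upstream and 53604 bp downstream. Of these, 3 had a VDR site within 1 kb, at 724, 789 and 871 bp. The site 8047 bp upstream had a DR4 with 1 mismatch and neither C/EBPβ nor RUNX2.
Col1a1, DR4, chr11:94789541-94789556, + strand: TGGTCAgtcaGGGTCA

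The cluster at Col1a1 also gives Sgca, Gm17329 and Hils1, its neighbours, 5 sites each, the highest counts of any gene outside the lists. Spp1, which encodes osteopontin, and Mepe share 2 intergenic sites, 27454 bp and 60645 bp upstream of Spp1, with a VDR site 436 bp and 222 bp from them. Col1a2 and Phospho1 had a site each. The only site of Ibsp was the site 60645 bp upstream of Spp1, already counted for Spp1 and Mepe. Of 12 vitamin D response genes, 3 (Spp1, Lrp5 and Vdr) had a site within 100 kb. This share of 25.0% stands beside the 11.7% of all genes. None of the 12 had a site within 20 kb, but the share of all genes there was 3.26%, so 0 of 12 is near it. Within 100 kb, 4 of the 12 had a constitutive site with VDR.

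Of 10 osteoblast transcription factor genes, 4 had a site and 5 a constitutive site with VDR. Fosl2, an AP-1 subunit gene, had one 654 bp upstream, overlapped by RUNX2 in both states and 289 bp from a VDR site. Sp7, which encodes osterix, had one 10496 bp upstream, Atf4 one 21092 bp upstream and Runx2 itself one in an intron 56792 bp downstream. Of 16 genes of TGF-β, BMP and Wnt signalling, 4 had a site and 6 a constitutive site with VDR. Tgfb1 had 4, which were all of its RXR regions, but 3 of these lay together near Hnrnpul1, 67854 to 69269 bp away, and had a VDR site within 711 bp. Outside the lists, Top2a and Azin1 had 4 sites each, with the nearest at 112 bp and 118 bp from the start. None of 10 housekeeping genes, and none of the 5 muscle, 4 blood and 5 liver markers, had a site within 100 kb. Beside the 11.7% of all genes, a count of 0 in lists this short is near the general share. Some RXR region lay within 100 kb of 4 of 10, 1 of 5, 1 of 4 and 2 of 5 of them in turn. For constitutive sites with VDR the counts were 2 of 10, 0 of 5, 1 of 4 and 0 of 5.

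**Figure D5:**
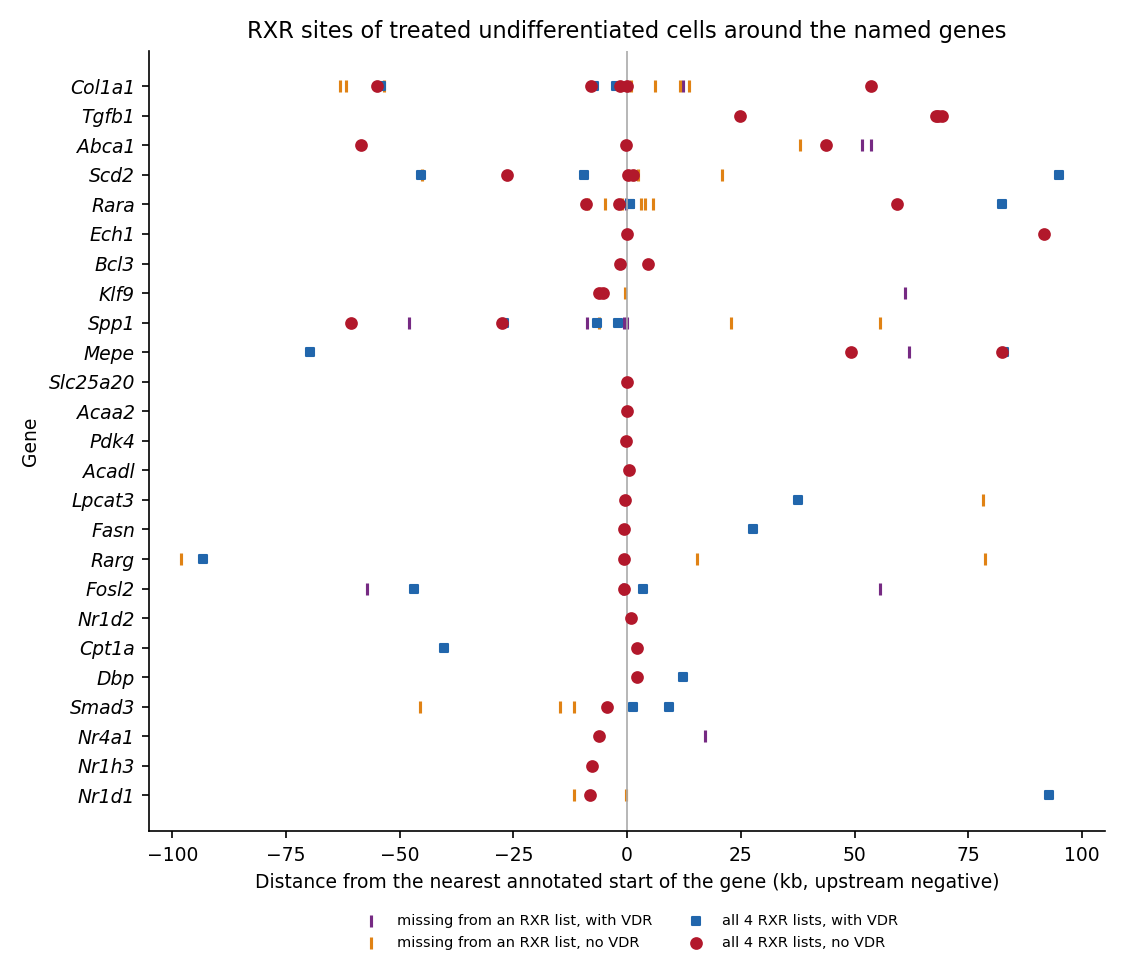
RXR regions of hormone-treated undifferentiated cells within 100 kb of the starts of the 25 list genes with the most of the 857 sites; the x axis is the distance from the nearest annotated start (kb, upstream negative). Genes with one of the 857 sites (circles) within 1 kb of the start include Abca1, Scd2, Fasn, Lpcat3, Col1a1 and 5 PPAR targets. At Scd2, Col1a1, Spp1 and Rara, 3 sites of all 4 RXR lists with VDR (squares) also lie within 100 kb.

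Of the 857 sites, 86 (10.0%) had another of the 857 within 10 kb and 254 (29.6%) within 100 kb; no comparison set was measured for this.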

How the data were processed

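ChIP-seq region lists of 22 samples were used. The submitters' processing notes name Bowtie, HOMER and mm9, without versions or thresholds. The deposited files hold positions, a name and a score; the score of the factor lists deposited by the authors is 0 throughout, and the histone score, of unknown meaning, served in 1 alternative that dropped the 25% of regions scoring lowest. Every factor region is 201 bp wide, which was also the motif window; the stricter overlap and the narrower window among the alternatives were 101 bp. Sequences of 1 chromosome were not printed. Some items are not reported here.

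Regions on chromosomes 1 to 19 and X were placed on NCBIM37 (mm9) with GENCODE vM1, and no region passed a chromosome end. Overlaps, motif counts and exact intervals were computed with Python 3.11.15, NumPy 2.4.6 and SciPy 1.17.1, and the code was tested on simulated data. With 1 list per group no test between conditions was possible, and regions are not replicates. The members, gene lists and comparisons were chosen with earlier results of these data known. Genes named were up to 25 from the lists with the most sites within 100 kb, and up to 5 others; single sites picked after their values were seen are the 1-mismatch and 2-mismatch elements and genes beyond these. Spi1 was absent from the annotation. Alternatives changed the overlap, VDR distance, VDR lists, starting list, motif window and mismatches, and distances.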

Additional observations from a re-analysis of the deposited data

How the results depend on the processing

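Under the 4 other definitions of the sites (RXR lists shared by the stricter overlap, no VDR site within 500 bp, undifferentiated VDR lists only, sites taken from the differentiated hormone list) their number was 760, 799, 857 and 863, and the shares recomputed for them (within 1 kb of a start, DR0 to DR8, factors and marks) all stayed within the intervals of the 857. No site of all 4 RXR lists overlapped VDR in differentiated cells alone, so the definition by undifferentiated VDR lists gave the same 857. Settings that change what counts as a match moved the shares, all by construction. The share near a start was 24.3% at 500 bp and 33.0% at 2 kb. Without mismatches the shares were DR0 0.467%, DR1 0.583%, DR2 0.350%, DR3 0%, DR4 0.467%, DR5 1.52%, DR6 0.233%, DR7 0% and DR8 0.117%. In the narrower window they were DR0 1.28%, DR2 1.98%, DR4 4.55%, DR5 5.02%, DR6 1.05% and DR8 0.700%. With AGGTCA as the only half-site, chosen after seeing the data, they were DR0 0.233%, DR1 1.40%, DR2 0.583%, DR3 0.117%, DR4 2.45%, DR5 1.98%, DR6 0.117%, DR7 0.117% and DR8 0.350%. The stricter overlap with a factor gave 21.2% (undifferentiated C/EBPβ), 19.4% (differentiated C/EBPβ), 43.3% (undifferentiated RUNX2) and 37.7% (differentiated RUNX2), and factor centres within 500 bp gave 31.6% (undifferentiated C/EBPβ), 29.4% (differentiated C/EBPβ) and 55.4% (undifferentiated RUNX2). Without the lowest 25% of histone regions by score, shares were 96.0% (undifferentiated H4K5ac), 95.3% (differentiated H4K5ac), 59.3% (undifferentiated H3K9ac), 80.2% (differentiated H3K9ac), 95.7% (undifferentiated H3K4me1), 97.4% (differentiated H3K4me1), 29.9% (undifferentiated H3K4me3) and 26.3% (differentiated H3K4me3).

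Using only the sites farther than 1 kb from a start, also chosen after seeing the data, gave 618 sites with factors at 31.7% (undifferentiated C/EBPβ), 30.6% (differentiated C/EBPβ), 57.6% (undifferentiated RUNX2) and 49.5% (differentiated RUNX2) and marks at 59.4% (undifferentiated H3K9ac), 82.7% (differentiated H3K9ac), 17.3% (undifferentiated H3K4me3), 7.93% (differentiated H3K4me3), 27.8% (undifferentiated H3K36me3) and 21.2% (differentiated H3K36me3). Genes with a site fell from 2594 to 725 within 20 kb and to 743 by nearest start. No paired analysis was possible because each group is 1 list. Depth is unknown, so an RXR or VDR site not called may lie below the authors' threshold.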
